A study of Mus musculus with 11 samples.

Results

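Gene expression of microglia-like cells was compared between mice transplanted into the lumbar intrathecal space (ITL) and mice transplanted through a vein (IV). The comparison used 6 of the 11 libraries of the study, 3 by ITL and 3 by IV, matched by sorted population. Its members were all genes of the tables, of which 13339 of 24411 carried enough counts to be tested. Each route gave 1 library of the population CD45.1 µ, 1 of CD45.1 TAµ and 1 of CD45.2 µ, all sorted as myeloid cells from brain. The study's title places it in a mouse model of Alzheimer's disease, and its design text describes competitive transplantation of blood stem and progenitor cells, with lumbar delivery explored as an alternative to delivery into the cerebral ventricles (ICV). The 3 ICV libraries of the same populations shared the estimate of the spread, and an ICV library labelled PBS and a control library labelled CTR stand beside a few results. What TAµ and PBS stand for, and which CD45 allele marked the host, is not spelled out in the labels. The sources used here do not state the age, sex and disease genotype of the mice, the dose given by each route, the time after transplantation, the dissociation of the brains or any pooling of animals. No 2 libraries shared both a route and a population. The p-values therefore measure how unevenly the differences between routes, ICV included, ran across populations, and not how much animals vary. Whether the effect of route differed between populations could not be tested.

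Cells given through a vein reach the brain from the blood, after seeding the bone marrow or directly, while cells given into the cerebrospinal fluid are placed next to the meninges and the spinal cord. Transplanted progenitors can settle in the brain as macrophages that resemble microglia, the resident macrophages of brain tissue. Immediate-early genes, which carry much of the difference described here, are transcribed within minutes of a stimulus from factors already present in the cell, and many of them encode transcription factors or feedback inhibitors of the signal that induced them.

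Sequencing was shallower by ITL, with total counts of 10947623, 9513898 and 6090589 by ITL (CD45.1 µ, then CD45.1 TAµ, then CD45.2 µ, the order of all values below), against 17048115, 14802989 and 12938826 by IV. A count of 0 therefore allowed up to 0.493 CPM, the count per library total after scaling, in the shallowest ITL library and up to 0.232 CPM in the shallowest IV library, by counting error only. IV CD45.2 µ had the fewest genes with a count, 10477, against 13627 in ITL CD45.2 µ. Rn45s, the precursor of ribosomal RNA, took 12.1%, 23.5% and 15.7% of counts by ITL and 11.9%, 8.95% and 8.68% by IV. Xist, an RNA of female cells that coats the silenced X, stood at 1369, 51.2 and 5391 CPM of the library total by ITL, against 295, 12.3 and 4028 CPM by IV. Transcripts of 4 Y-linked genes summed to 170.4, 295 and 3.61 CPM by ITL and 350.2, 488.5 and 45.8 CPM by IV. In each population Xist was thus higher and the Y-linked sum lower by ITL. Among the Y-linked genes Kdm5d did not follow the sum, with 33.3, 40.2 and 0 CPM by ITL against 29.1, 38.6 and 0 CPM by IV. Route and the share of female cells cannot be told apart in any result below.

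By ITL, 28 genes fell and 1 gene rose relative to IV. These were 0.217% of the 13339 genes tested (lower 0.21%, higher 0.0075%) at a Benjamini-Hochberg adjusted p under 0.05 in edgeR's quasi-likelihood test. The 28 genes that fell include the AP-1 genes Fos, Fosb, Jun and Jund, the early growth response gene Egr1, the Krüppel-like factors Klf2, Klf4 and Klf6, and the feedback inhibitors Tnfaip3 and Dusp1. Their fitted level by IV was 2.27-fold (Tmx4) to 5.03-fold (Fosb) that by ITL. All 28 were lower by ITL in 3 of 3 populations, as were 13.2% of all genes tested (16.9% were higher in all 3), and for 27 of them every ITL library lay below every IV library. Over all genes tested such a gap was found for 6.09% with ITL below IV and for 6.12% with ITL above IV, so the tables held as many genes in one direction as in the other. The median log2 fold change of all genes tested was 0.05, with 47% fitted lower and 53% higher. The plot of fold change against level places the 28 genes among the well-expressed genes, while scattered genes of low level lie farther from 0 without passing.

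**Figure D1:**
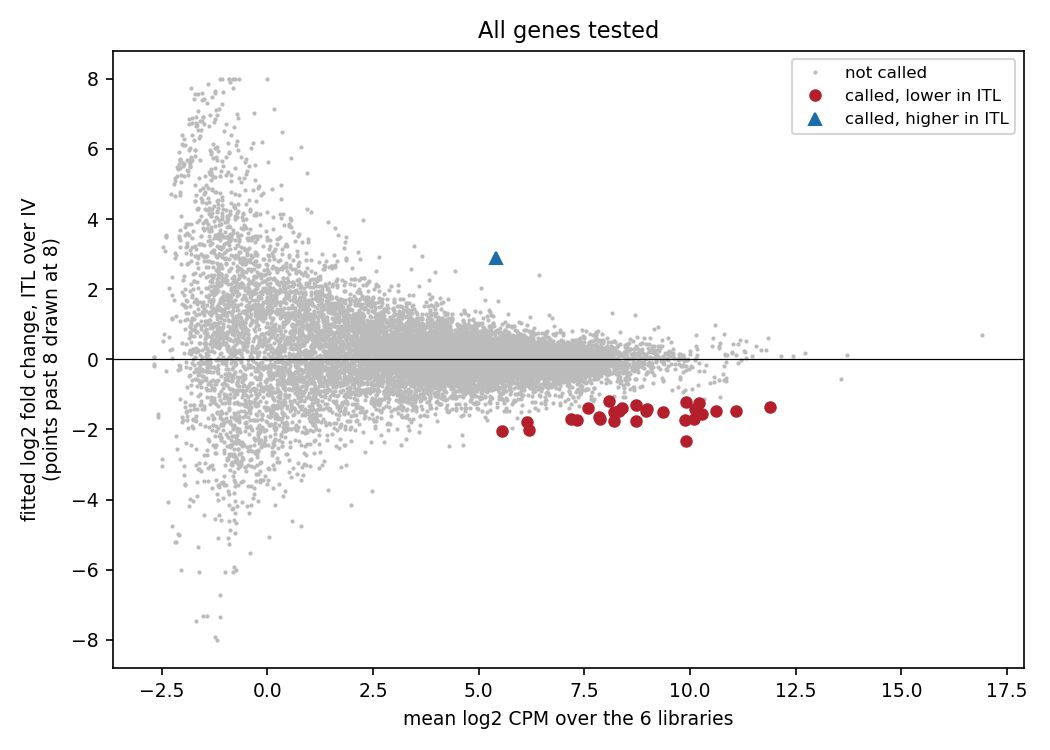
Fitted log2 fold change of ITL over IV (vertical axis) against the mean log2 CPM over the 6 ITL and IV libraries (horizontal axis), 1 point per gene tested. The 28 genes called lower by ITL (circles) lie between -2.33 and -1.18, and the triangle is Snord32a at 2.89.

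The number of genes called rests on single libraries. With 1 library left out, the same test called 4 genes without IV CD45.1 µ, 0 without IV CD45.1 TAµ, 0 without ITL CD45.1 µ, 1 without ITL CD45.1 TAµ and 15 without ITL CD45.2 µ. Without IV CD45.2 µ it called 35, of which 19 were among the 29. Without sorted population as a block it called 13, all among the 29. At an unadjusted p under 0.05 there were 891 and 299 genes in the fits that called 0, and no other tool was run on them. With all 9 libraries that count was 714 of 13339 (5.35%), 3.09% lower and 2.26% higher by ITL. DESeq2 called 150 genes, 79 lower and 71 higher by ITL, so the near absence of higher genes depends on the test. All 28 genes stayed lower by ITL under each of the settings tried, with log2 fold changes of -2.59 to -1.02 across them. Since they were called for their gap in these same libraries, their sign could hardly have turned.

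**Figure D2:**
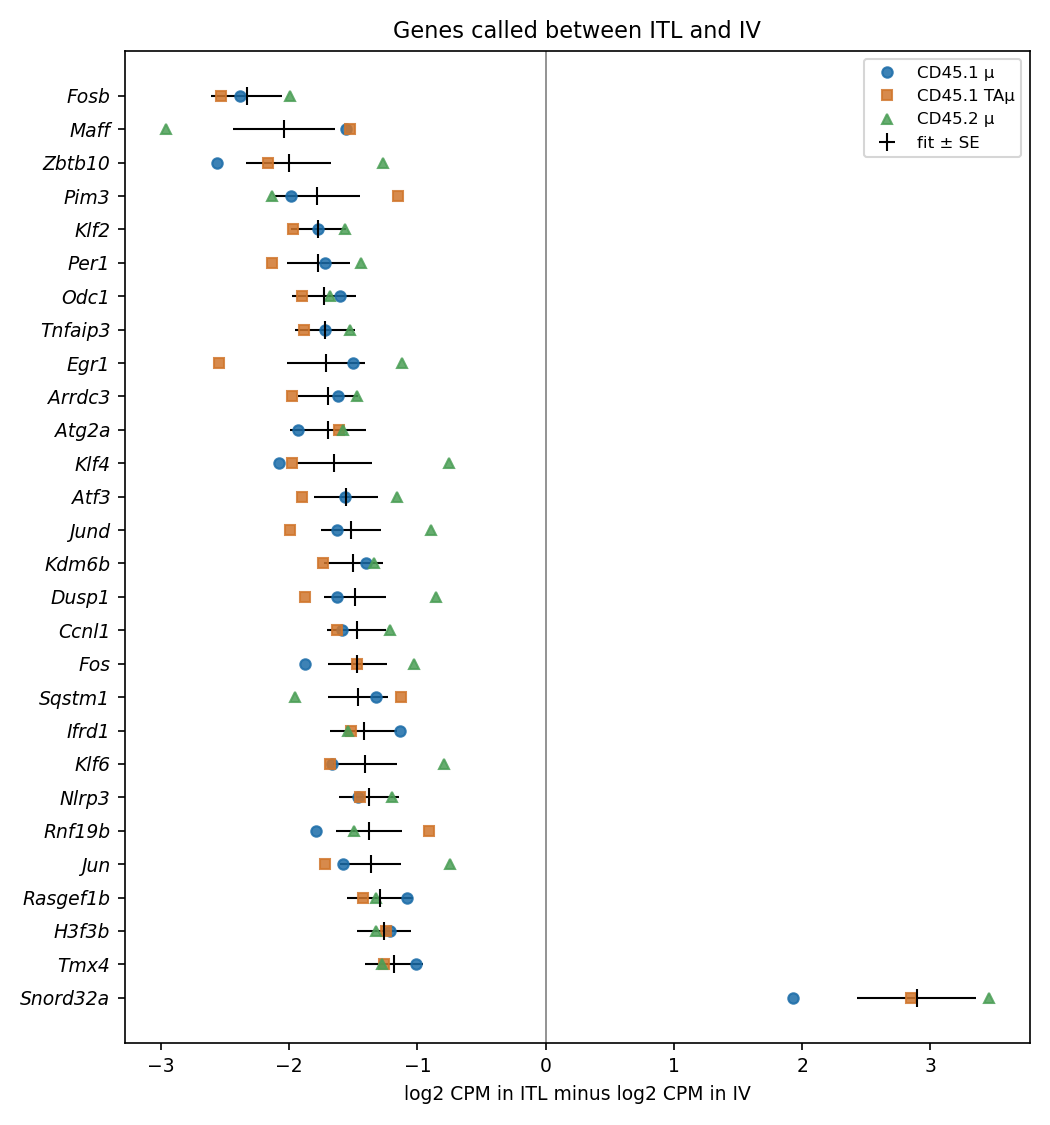
Log2 difference between ITL and IV within each sorted population (points) and the fitted log2 fold change with its SE (bar) for called genes. The points of the lower genes lie below 0 in all 3 populations, and those of Snord32a above 0.

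The AP-1 family, dimers of Fos, Jun and ATF proteins that bind promoters and enhancers, held 5 of the 28 genes that fell. Fosb had 393, 600.4 and 349 CPM by ITL, against 2048, 3467 and 1388 CPM by IV. It thus averaged 447 ± 134 CPM by ITL and 2301 ± 1063 CPM by IV (SD, n = 3 each), and fell by 2.33 ± 0.28 (SE) on the log2 scale (edgeR adjusted p = 0.00171). The highest ITL library lay below the lowest IV library by more than a factor of 2. Fos, the dimer partner first described from a viral oncogene, had 959.5, 1674 and 1438 CPM by ITL and 3518, 4629.9 and 2932 CPM by IV (log2 fold change -1.47 ± 0.23, edgeR adjusted p = 0.00838). Jun, a partner of Fos, had 1881, 2163 and 3300.4 CPM by ITL, against 5638, 7135 and 5541 CPM by IV (-1.37 ± 0.24, edgeR adjusted p = 0.0168). The routes did not overlap for any of these genes, and CD45.2 µ showed the narrowest gap for Fos and Jun. Jund, which is expressed in resting cells as well, had 349, 322 and 534 CPM by ITL against 1079.8, 1279.7 and 991 CPM by IV (-1.52 ± 0.23). Atf3, a stress-induced repressor of the same family, had 546, 719.5 and 1013 CPM by ITL against 1612, 2687 and 2266 CPM by IV (-1.56 ± 0.25). Both passed (edgeR adjusted p = 0.00838 for Jund and 0.00941 for Atf3). Junb did not pass (-0.85 ± 0.21, edgeR adjusted p = 0.171), and neither did Fosl2, with 116, 145 and 104 CPM by ITL against 247, 348 and 149 CPM by IV (edgeR adjusted p = 0.416), although the ITL libraries lay below all IV libraries for both. Over the 22 AP-1, ATF and CREB genes tested, 5 fell, 0 rose and 14 were fitted lower (0.21%, 0.0075% and 47% of all genes tested), and the median log2 fold change was -0.46, in a family put together after these values had been seen.

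**Figure D3:**
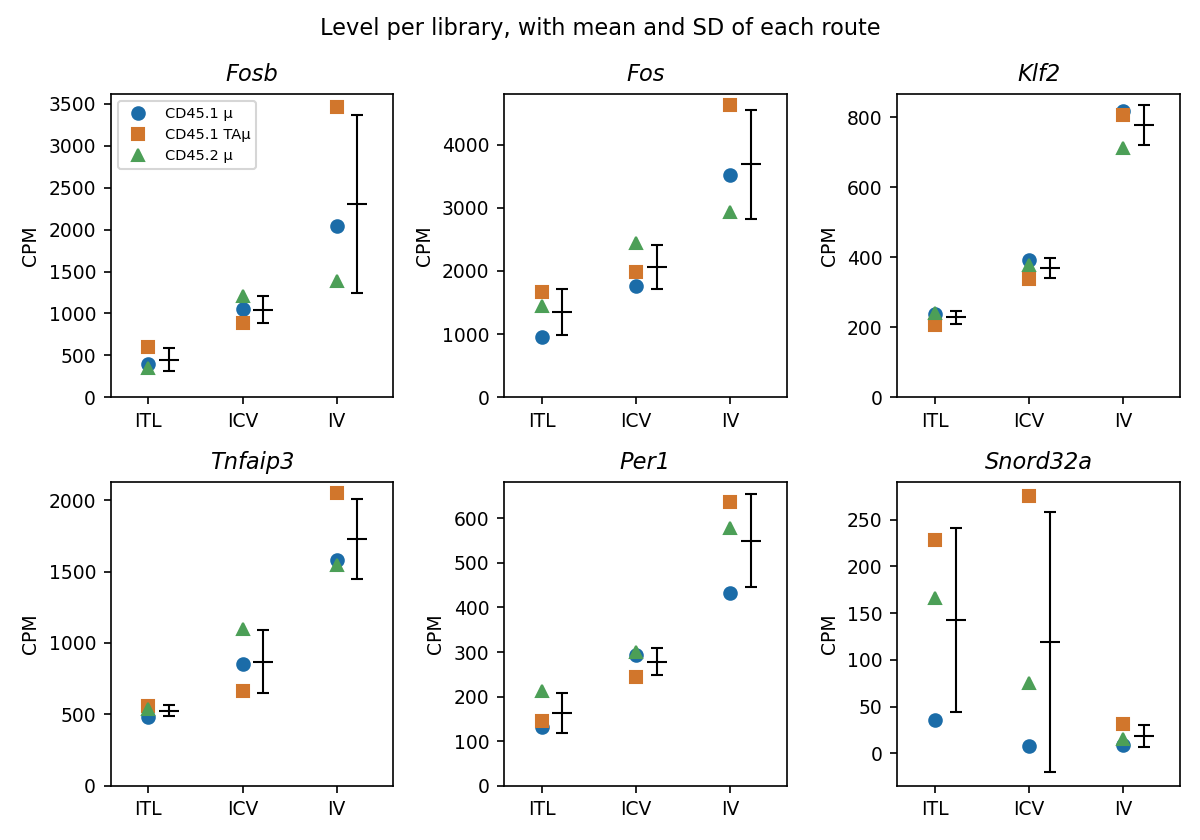
Level in CPM (vertical axis, linear) of 6 genes in the ITL, ICV and IV libraries, 1 point per sorted population, with the mean and SD of each route beside them. For Fosb, Fos, Klf2, Tnfaip3 and Per1 the 3 ITL points lie below the 3 IV points, and for Snord32a above them.

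Promoters of 5 genes that fell are shown, each holding at least 1 of the motifs searched, as RefSeq gives them on GRCm38.p6, from 250 bases before to 50 bases after the annotated start and on the strand of the gene. The sequences are those of Fosb (minus strand, chr7:19309996-19310295), Fos (plus strand, chr12:85473640-85473939), Tnfaip3 (minus strand, chr10:19015361-19015660), Dusp1 (minus strand, chr17:26508423-26508722) and Ccnl1 (minus strand, chr3:65958200-65958499). Capitals mark matches to an NF-kB site in Fosb, Fos and Tnfaip3, to the AP-1 site TGAGTCA on the opposite strand in Tnfaip3, and to the cyclic AMP response element TGACGTCA in Dusp1 and Ccnl1. None of the matches printed overlaps another. Tnfaip3 has 2 listed starts, of which the first is shown.
Fosb: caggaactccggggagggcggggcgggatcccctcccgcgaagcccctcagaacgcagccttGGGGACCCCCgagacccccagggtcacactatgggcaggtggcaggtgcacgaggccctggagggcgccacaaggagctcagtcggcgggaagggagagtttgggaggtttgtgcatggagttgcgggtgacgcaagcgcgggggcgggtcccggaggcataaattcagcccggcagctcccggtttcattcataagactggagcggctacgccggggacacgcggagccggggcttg
Fos: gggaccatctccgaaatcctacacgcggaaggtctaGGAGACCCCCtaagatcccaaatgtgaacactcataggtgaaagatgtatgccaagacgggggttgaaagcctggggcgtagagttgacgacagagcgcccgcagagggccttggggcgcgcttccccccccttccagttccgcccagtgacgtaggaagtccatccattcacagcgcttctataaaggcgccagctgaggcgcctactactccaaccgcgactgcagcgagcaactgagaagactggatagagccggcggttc
Tnfaip3: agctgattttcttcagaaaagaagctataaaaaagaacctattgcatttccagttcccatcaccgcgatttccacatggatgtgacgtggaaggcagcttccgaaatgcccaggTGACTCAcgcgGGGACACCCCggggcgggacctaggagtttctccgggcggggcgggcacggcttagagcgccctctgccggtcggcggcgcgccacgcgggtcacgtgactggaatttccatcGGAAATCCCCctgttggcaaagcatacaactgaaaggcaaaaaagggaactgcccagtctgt
Dusp1: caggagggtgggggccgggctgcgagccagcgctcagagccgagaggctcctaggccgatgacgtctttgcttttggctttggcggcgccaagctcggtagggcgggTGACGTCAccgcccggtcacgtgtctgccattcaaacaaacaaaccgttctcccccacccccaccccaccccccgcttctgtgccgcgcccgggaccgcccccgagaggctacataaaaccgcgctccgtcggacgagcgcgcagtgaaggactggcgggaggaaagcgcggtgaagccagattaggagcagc
Ccnl1: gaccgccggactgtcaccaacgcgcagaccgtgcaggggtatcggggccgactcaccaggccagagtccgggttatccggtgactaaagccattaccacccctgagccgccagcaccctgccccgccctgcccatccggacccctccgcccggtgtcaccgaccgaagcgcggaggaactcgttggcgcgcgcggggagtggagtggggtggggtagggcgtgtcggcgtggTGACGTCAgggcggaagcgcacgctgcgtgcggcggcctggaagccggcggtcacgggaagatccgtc
The match in Fosb began 188 bases before the start and that in Fos 214 bases before it. Tnfaip3 held NF-kB sites that began 125 and 12 bases before the start and the AP-1 site 136 bases before it. The response element began 143 bases before the start of Dusp1 and 18 bases before that of Ccnl1. Both strands were searched in the promoters of 10044 of the 13339 genes tested, among them 24 of the 28 genes that fell. A gene with several annotated starts counted once, if any of its promoters held a match. An NF-kB site was found in 6 of these 24 (25%), namely Fos, Fosb, Maff, Nlrp3, Sqstm1 and Tnfaip3, and in 6.23% of all 10044 genes. The response element was found in 3 of 24 (12.5%), namely Ccnl1, Dusp1 and Maff, and in 3.55% of all. The AP-1 site was in 1 of 24 (4.17%) and in 4.51% of all, and the CArG box was in 0 of 24 and in 1.52% of all. A match describes these letters in this window and not binding.

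Of 5 MAF factors tested, relatives of AP-1, 1 fell, beside 0.21% of all genes tested, in a family also put together after these values had been seen. Maff, a small MAF protein that pairs with other basic leucine zipper factors, had 23.7, 23.7 and 21.6 CPM by ITL against 70.3, 68.3 and 169 CPM by IV (log2 fold change -2.04 ± 0.40, edgeR adjusted p = 0.041). Its relative Mafk had 26.4, 30.1 and 37.9 CPM by ITL against 77.1, 84.0 and 101 CPM by IV, without overlap, and did not pass (-1.48 ± 0.33, edgeR adjusted p = 0.103). Maf, which directs macrophage differentiation, was at 0.20 ± 0.21 and did not pass either (edgeR adjusted p = 0.926).

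Other immediate-early transcription factors fell singly. Egr1, a zinc finger factor, had 422, 307 and 1707 CPM by ITL against 1194, 1789.8 and 3716 CPM by IV (log2 fold change -1.71 ± 0.30, edgeR adjusted p = 0.0192). It is the 1 gene of the 28 whose routes overlapped, because CD45.2 µ was its highest population by both routes. Egr2 (-0.19 ± 0.62) and Egr3 (0.09 ± 0.58) were at most 40.1 CPM in the 6 libraries and did not pass. Among the NR4A nuclear receptors, Nr4a1 had 294, 456 and 454 CPM by ITL against 374, 572 and 179.5 CPM by IV, and the routes overlapped (0.10 ± 0.34, edgeR adjusted p = 0.974). Nr4a3 stood at 0.01 ± 0.40. Nr4a2 had 11.3, 25.2 and 12.9 CPM by ITL against 48.0, 59.5 and 38.1 CPM by IV and did not pass (-1.59 ± 0.45, edgeR adjusted p = 0.311).

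Krüppel-like factors, a family of zinc finger proteins, held 3 genes that fell among 13 tested, beside 0.21% of all genes tested (median log2 fold change -0.67). Klf2 had 238, 206 and 241 CPM by ITL against 817, 807 and 712 CPM by IV, with means of 229 ± 19.2 CPM by ITL and 779 ± 57.8 CPM by IV (SD, n = 3 each). Its log2 fold change was -1.77 ± 0.22 (edgeR adjusted p = 0.00171), and the spread within each route was small beside the gap between them. Klf4 had 92.3, 150.5 and 169 CPM by ITL against 390.3, 593 and 284 CPM by IV (-1.65 ± 0.30, edgeR adjusted p = 0.0216). Klf6 had 588, 732 and 753 CPM by ITL against 1864, 2343 and 1301 CPM by IV (-1.41 ± 0.25, edgeR adjusted p = 0.0208). For both the gap was narrowest in CD45.2 µ, the population with the lowest IV value. Klf11 (-1.21 ± 0.44, edgeR adjusted p = 0.697) had the next smallest p of the family, which was put together after these values had been seen, like the other families named below.

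Feedback inhibitors of inflammatory and mitogen signalling fell too. Tnfaip3 encodes A20, an enzyme that edits ubiquitin chains and ends NF-kB signalling. It had 481, 557 and 536 CPM by ITL against 1585, 2049.8 and 1544 CPM by IV (log2 fold change -1.72 ± 0.23, edgeR adjusted p = 0.00428). Dusp1, a phosphatase that inactivates MAP kinases, had 952, 971 and 913 CPM by ITL against 2948, 3562 and 1649 CPM by IV (-1.49 ± 0.24, edgeR adjusted p = 0.00945). The 3 ITL levels of Dusp1 lay close together, while its IV levels spread over a range of more than 2-fold. Dusp1 is the 1 gene that fell among 19 dual-specificity phosphatase genes tested, beside 0.21% of all genes tested, and their median log2 fold change was 0.03. Nlrp3, the sensor of the inflammasome that activates interleukin-1, had 190.2, 212 and 222 CPM by ITL against 523, 579 and 509 CPM by IV (-1.38 ± 0.24, edgeR adjusted p = 0.0148). Of its partners, the adaptor gene Pycard was at 1.30 ± 0.46 (edgeR adjusted p = 0.688) and Casp4, a caspase that senses lipopolysaccharide, at -1.16 ± 0.34 (edgeR adjusted p = 0.381), and neither passed. The NF-kB regulator Nfkbiz had 587, 730.2 and 673 CPM by ITL against 1124, 1572 and 1093 CPM by IV, and the activation marker Cd83 had 492, 781 and 465 CPM by ITL against 932, 1145 and 1050.0 CPM by IV. Neither passed (-0.93 ± 0.23 and -0.87 ± 0.22, edgeR adjusted p = 0.178 and 0.216), nor did the neutrophil-attracting chemokine gene Cxcl2 (-1.42 ± 0.32, edgeR adjusted p = 0.113).

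Genes of other processes made up the rest of the 28. Per1, a repressor in the circadian clock that glucocorticoids and cyclic AMP also induce, had 131, 145 and 213 CPM by ITL against 433, 637 and 579 CPM by IV (log2 fold change -1.77 ± 0.24, edgeR adjusted p = 0.00428). Of 19 clock genes tested it was the 1 that fell; 16 were fitted lower and 3 higher, beside 47% and 53% of all genes tested, with a median of -0.42. Per2 (-2.17 ± 0.56, edgeR adjusted p = 0.222) and Ciart (-2.44 ± 0.75, edgeR adjusted p = 0.44), also clock repressors, were below all IV libraries by ITL and did not pass. Odc1, the enzyme of the first step of polyamine synthesis, averaged 87.7 ± 4.99 CPM by ITL and 293 ± 48.1 CPM by IV (SD, n = 3 each; -1.73 ± 0.25, edgeR adjusted p = 0.00646). Azin1, which protects that enzyme from its antizyme, did not pass (-0.92 ± 0.26, edgeR adjusted p = 0.297). Arrdc3, an alpha-arrestin that routes receptors to degradation, had 139.7, 139 and 113 CPM by ITL against 429.6, 546 and 314 CPM by IV (-1.70 ± 0.24, edgeR adjusted p = 0.00428). For each of these 3 genes that fell the ITL and IV levels were well apart in all populations.

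Genes of autophagy and protein turnover were also among them. Sqstm1, the p62 receptor that carries ubiquitin-tagged cargo into autophagosomes, had 175, 213 and 192 CPM by ITL against 437, 465 and 745 CPM by IV (log2 fold change -1.47 ± 0.23, edgeR adjusted p = 0.00941). Atg2a, a lipid transfer protein of the growing autophagosome, had 54.8, 76.9 and 120.2 CPM by ITL against 209, 236 and 360.4 CPM by IV (-1.70 ± 0.29, edgeR adjusted p = 0.0163). The kinase gene Ulk1, which starts autophagy, did not pass (-1.49 ± 0.30, edgeR adjusted p = 0.0624). Over 33 autophagy genes 2 fell and 0 rose, beside 0.21% and 0.0075% of all genes tested, and the median log2 fold change was -0.23. The ubiquitin ligase gene Rnf19b fell by 1.38 ± 0.25 (edgeR adjusted p = 0.0253).

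Nuclear proteins included Kdm6b, a demethylase of repressive histone marks, with 158, 151 and 226 CPM by ITL against 417, 502 and 573 CPM by IV (log2 fold change -1.50 ± 0.23, edgeR adjusted p = 0.00838). Ccnl1, a cyclin of the splicing kinases, had 224, 291 and 407 CPM by ITL against 672, 899 and 946 CPM by IV (-1.47 ± 0.23, edgeR adjusted p = 0.00838). H3f3b, a gene for a replacement histone, had 763, 829 and 715 CPM by ITL against 1769, 1967 and 1789 CPM by IV (-1.26 ± 0.21, edgeR adjusted p = 0.012). The 3 levels within each route were close for H3f3b, and no pair of libraries across the routes came nearer than a factor of 2. Zbtb10, a zinc finger repressor, had 23.7, 39.0 and 53.0 CPM by ITL against 141, 175 and 128 CPM by IV (edgeR adjusted p = 0.0115). Ifrd1, a transcriptional coregulator, fell by 1.42 ± 0.26, the kinase gene Pim3 by 1.78 ± 0.33, the exchange factor gene Rasgef1b by 1.29 ± 0.25 and Tmx4, which encodes a thioredoxin-like protein of the endoplasmic reticulum, by 1.18 ± 0.23 (edgeR adjusted p = 0.0227, 0.0289, 0.0439 and 0.0337). Several of the 28 have annotated genes on the opposite strand at the same place, among them Sqstm1, Dusp1, Jun, Jund and Kdm6b, and the sources used here do not state whether counting used the strand.

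The 28 genes together took 1.07%, 1.13% and 1.59% of counts by ITL, 1.995%, 1.35% and 2.03% by ICV, and 3.11%, 4.30% and 3.52% by IV. ITL thus lay lowest and IV highest in each population, with ICV between them. For 27 of the 28 genes the ICV mean lay between the ITL mean and the IV mean, and for 13 all ICV libraries lay between the highest ITL and the lowest IV library. Since the genes were chosen by the gap between ITL and IV, these positions are a description. The CTR library, at 1.93%, lay below all IV libraries for 25 of the genes and above all ITL libraries for 23. The PBS library, at 3.57%, lay above all ITL libraries for 27 and inside or above the range of IV for 22. Which of the routes departs from untreated cells cannot be read from 1 control library.

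Immediate-early genes were then described as a whole list, which, like the other lists, was chosen with earlier results of these data known. All 26 of its genes were tested; 11 fell, 42.3% of them beside 0.21% of all genes tested. Of the 26, 21 were fitted lower and 5 higher, beside 47% and 53% of all genes tested, with a median log2 fold change of -1.11. For 16 of them every ITL library lay below every IV library, as for 6.09% of all genes tested. The within-population medians were -1.18 in CD45.1 µ, -1.36 in CD45.1 TAµ and -0.77 in CD45.2 µ, against 0, 0.02 and 0.19 over all genes. Summed over the list, levels were 11210.0, 12223 and 16689 CPM by ITL against 29021, 41656 and 30126 CPM by IV. Zfp36, which encodes a protein that destabilises cytokine messengers, had 731, 945 and 993 CPM by ITL against 1683, 2676 and 1548 CPM by IV and did not pass (-1.15 ± 0.25, edgeR adjusted p = 0.0773). Rgs1, an inhibitor of G protein signalling, did not pass either (-1.08 ± 0.25, edgeR adjusted p = 0.129).

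Heat shock genes, chaperones that respond to misfolded protein, were fitted lower for 15 of 16 members, beside 47% of all genes tested. None of the 16 passed, and their median log2 fold change was -0.58. Bag3, a co-chaperone, had 55.2, 62.1 and 63.7 CPM by ITL against 139.6, 218 and 116 CPM by IV (-1.39 ± 0.33, edgeR adjusted p = 0.143). Hsph1 had 228, 382 and 306 CPM by ITL against 746, 1269 and 347 CPM by IV, so that its routes overlapped (-1.28 ± 0.38, edgeR adjusted p = 0.369). The within-population median of the list was -0.76 in CD45.1 µ and -1.04 in CD45.1 TAµ but -0.11 in CD45.2 µ. Of 28 inflammatory cytokine and NF-kB feedback genes, Tnfaip3 and Nlrp3 fell (7.14%, beside 0.21% of all genes tested), and 22 were fitted lower and 6 higher, beside 47% and 53% of all genes (median -0.34). Of 36 interferon response genes 0 passed, and 30 were fitted lower and 6 higher, against those same shares (median -0.45). Rsad2, the antiviral viperin gene, had 15.4, 20.9 and 7.77 CPM by ITL against 59.1, 56.0 and 22.1 CPM by IV (-1.62 ± 0.46, edgeR adjusted p = 0.311). The class I histocompatibility gene H2-Q4 was at -1.23 ± 0.29 (edgeR adjusted p = 0.143), in a list of 16 with 9 members fitted higher and 7 lower.

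**Figure D4:**
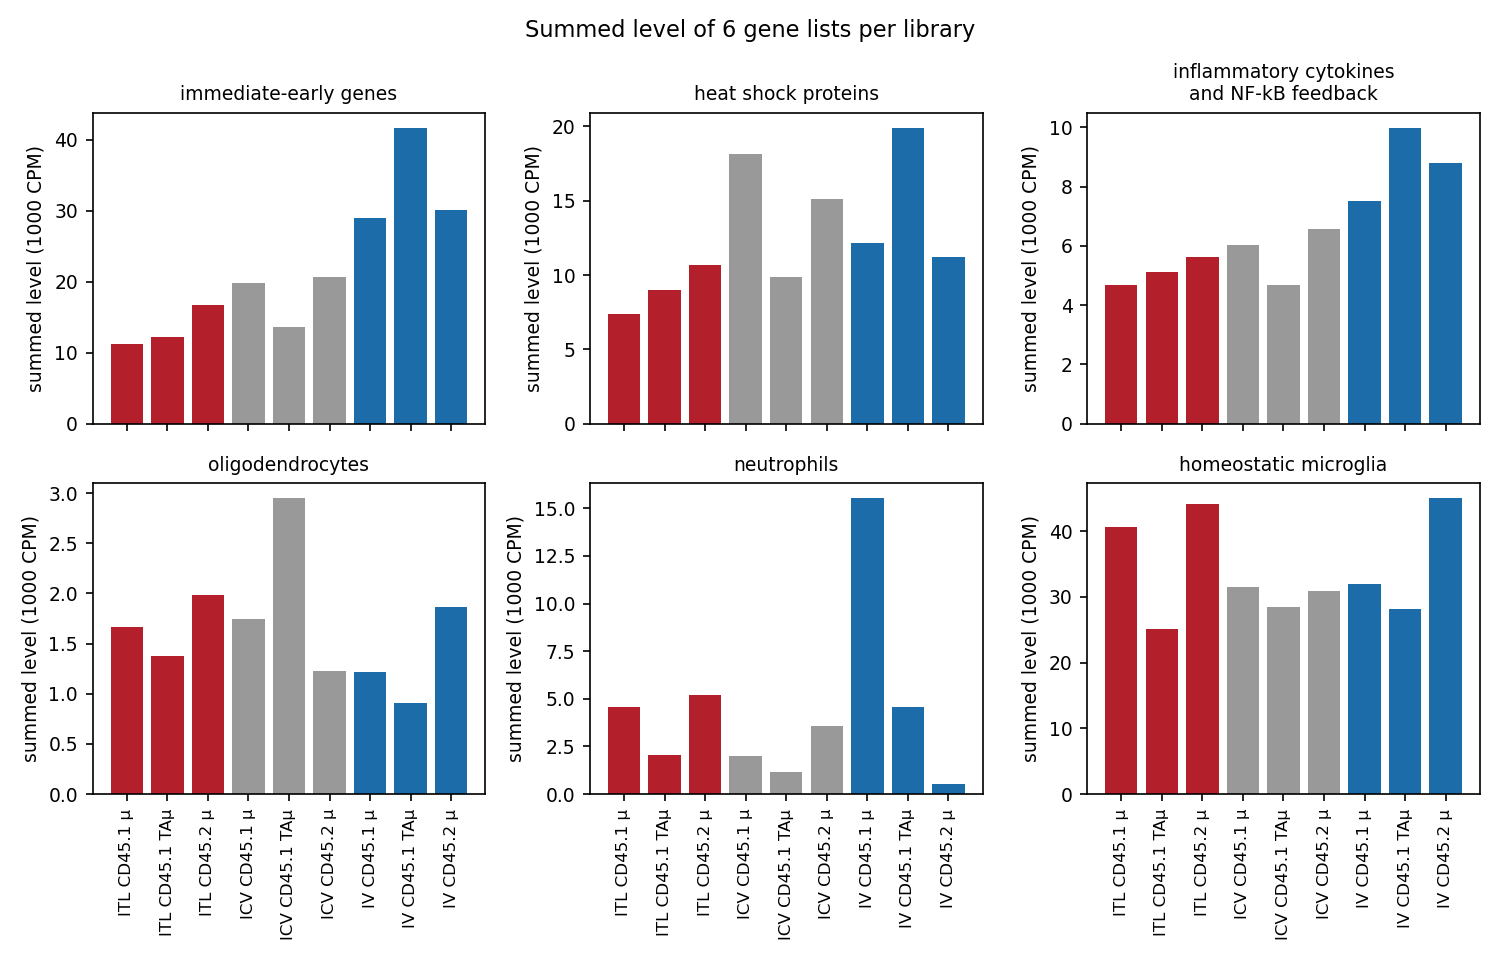
Summed level of 6 gene lists (vertical axis, in units of 1000 CPM, linear from 0) in each ITL, ICV and IV library (bars). The immediate-early sum is lower in every ITL bar than in every IV bar, while the neutrophil sum is lowest in IV CD45.2 µ and highest in IV CD45.1 µ.

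Snord32a, a small nucleolar RNA that guides methylation of ribosomal RNA, was the 1 gene that rose. It had 35.2, 228 and 166 CPM by ITL, against 9.12, 31.4 and 15.0 CPM by IV (log2 fold change 2.89 ± 0.46, edgeR adjusted p = 0.00941). The routes did not overlap, but its 3 ICV levels of 8.01, 276 and 74.8 CPM spanned both. It lies within Rpl13a on the same strand, and Rpl13a itself did not pass (0.40 ± 0.31, edgeR adjusted p = 0.922). The class of small nucleolar RNAs held 0.112%, 0.205% and 0.179% of counts by ITL and 0.0803%, 0.156% and 0.141% by IV. Of 75 tested 56 were fitted higher (median 1.16), beside 53% of all genes tested. Libraries were made from polyadenylated RNA, which leaves most small nucleolar RNAs behind, and the part of the class shift in the level of Snord32a was not tested. With Rn45s left out of the counts the log2 fold change of Snord32a was 2.94 (edgeR adjusted p = 0.00816). Its call was lost without any 1 of IV CD45.1 TAµ, IV CD45.2 µ and the 3 ITL libraries, with log2 fold changes of 2.56 to 3.29 (edgeR adjusted p = 0.0507 to 0.402).

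Without a test, 100 genes (0.75%) were at least 2-fold lower by ITL in all 3 populations and 250 (1.87%) at least 2-fold higher. The excess of higher genes sat at low levels: among 4637 genes with a mean of at least 5 log2 CPM, 44 were lower and 5 higher. The 5 include Snord32a, Gngt2, Prdx1 and Rmrp, a description of the largest differences. Prdx1, a peroxide-reducing enzyme, had 143, 248 and 116 CPM by ITL against 68.5, 108 and 45.6 CPM by IV and did not pass (log2 fold change 1.19 ± 0.27, edgeR adjusted p = 0.115). Gngt2, a G protein subunit gene expressed in patrolling monocytes, had 65.2, 68.0 and 57.3 CPM by ITL against 19.7, 22.9 and 16.6 CPM by IV (1.70 ± 0.44, edgeR adjusted p = 0.222). The routes did not overlap for either gene. Rmrp, the RNA of an endonuclease that processes ribosomal RNA, had 327, 734 and 375 CPM by ITL against 141, 349.9 and 123 CPM by IV (1.31 ± 0.33, edgeR adjusted p = 0.213). The chemokine gene Ccl9 was at 1.34 ± 0.40 (edgeR adjusted p = 0.369).

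Genes that mark microglia did not pass between the routes, apart from Jun, which the list of homeostatic microglia shares with the immediate-early list. Of its 30 genes 24 were fitted higher and 6 lower by ITL, beside 53% and 47% of all genes tested. The list had a median log2 fold change of 0.36 and within-population medians of 0.75, 0.26 and 0.13. Cx3cr1, the fractalkine receptor gene, had 3343, 2487 and 3479.6 CPM by ITL against 2033, 1997 and 2515 CPM by IV (0.51 ± 0.20, edgeR adjusted p = 0.807). Its routes overlapped by a narrow margin, since ITL CD45.1 TAµ lay just below IV CD45.2 µ. P2ry12 had 2349.6, 825 and 3148 CPM by ITL against 992, 672 and 2657 CPM by IV (0.60 ± 0.29, edgeR adjusted p = 0.914). Sall1, a regulator of microglial identity, had 348, 8.57 and 646 CPM by ITL against 80.0, 2.11 and 483 CPM by IV (1.22 ± 0.38, edgeR adjusted p = 0.497). CD45.1 TAµ had the lowest level of both by either route. Tmem119 (0.60 ± 0.25, edgeR adjusted p = 0.834), P2ry13 (0.86 ± 0.23, edgeR adjusted p = 0.258), Gpr34 (0.91 ± 0.26, edgeR adjusted p = 0.311) and Sall3 (1.74 ± 0.48, edgeR adjusted p = 0.26) had the same sign. Ptprc, which encodes CD45, had 598, 866 and 726 CPM by ITL against 543, 789 and 383 CPM by IV (0.38 ± 0.23, edgeR adjusted p = 0.915). The phagocytic receptor gene Trem2 was at 0.23 ± 0.32 (edgeR adjusted p = 0.933).

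Macrophage programmes differed little by their fitted list medians. The list of graft-derived brain macrophages had a median log2 fold change of 0.21 (21 of 25 fitted higher, 0 called), that of border-associated macrophages 0.22 (15 of 22, 0 called) and that of disease-associated microglia 0.12 (20 of 25, 0 called). Over all genes tested 53% were fitted higher, the share to set beside each such count. The within-population medians of these lists took both signs. These were -0.10, 0.44 and 0.44 for graft-derived macrophages and 0.31, 0.30 and -0.25 for border-associated macrophages. For disease-associated microglia they were 0.24, 0.47 and -0.41. Apoe, the lipid carrier induced in disease-associated microglia, had 22502, 28618 and 3968 CPM by ITL against 24147, 16106 and 6150.3 CPM by IV (0.11 ± 0.39, edgeR adjusted p = 0.974). Both routes showed their lowest level in CD45.2 µ. Ms4a7, expressed by brain macrophages that derive from blood, was at 0.21 ± 0.39 (edgeR adjusted p = 0.953). Class II histocompatibility genes were split evenly, 8 higher and 8 lower (median 0.01, 0 called). Of 40 lysosomal genes 34 were fitted higher (median 0.19), with Lamp2 at 819, 846 and 672 CPM by ITL against 552, 527 and 521 CPM by IV (0.54 ± 0.20, edgeR adjusted p = 0.741). Of 73 ribosomal protein genes 69 were fitted higher (median 0.36), but their median was -0.28 within CD45.2 µ and 0.93 within CD45.1 TAµ. Neither list held a called gene. The other lists of cell function held 0 called genes as well, with medians of 0.31 for oxidative phosphorylation, 0.15 for glycolysis and hypoxia, 0.37 for complement, 0.32 for phagocytic receptors, 0.04 for lipid efflux, -0.25 for cholesterol synthesis, 0.02 for the TGF-beta pathway and -0.08 for oxidative stress and iron. Chemokines (0.40), leukocyte adhesion (0.25), the cell cycle (0.01) and genes at Alzheimer's disease risk loci (0.05) held none either. Beside a count of 0 in a list, the same test called 28 lower genes among all genes and DESeq2 called 79.

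**Figure D5:**
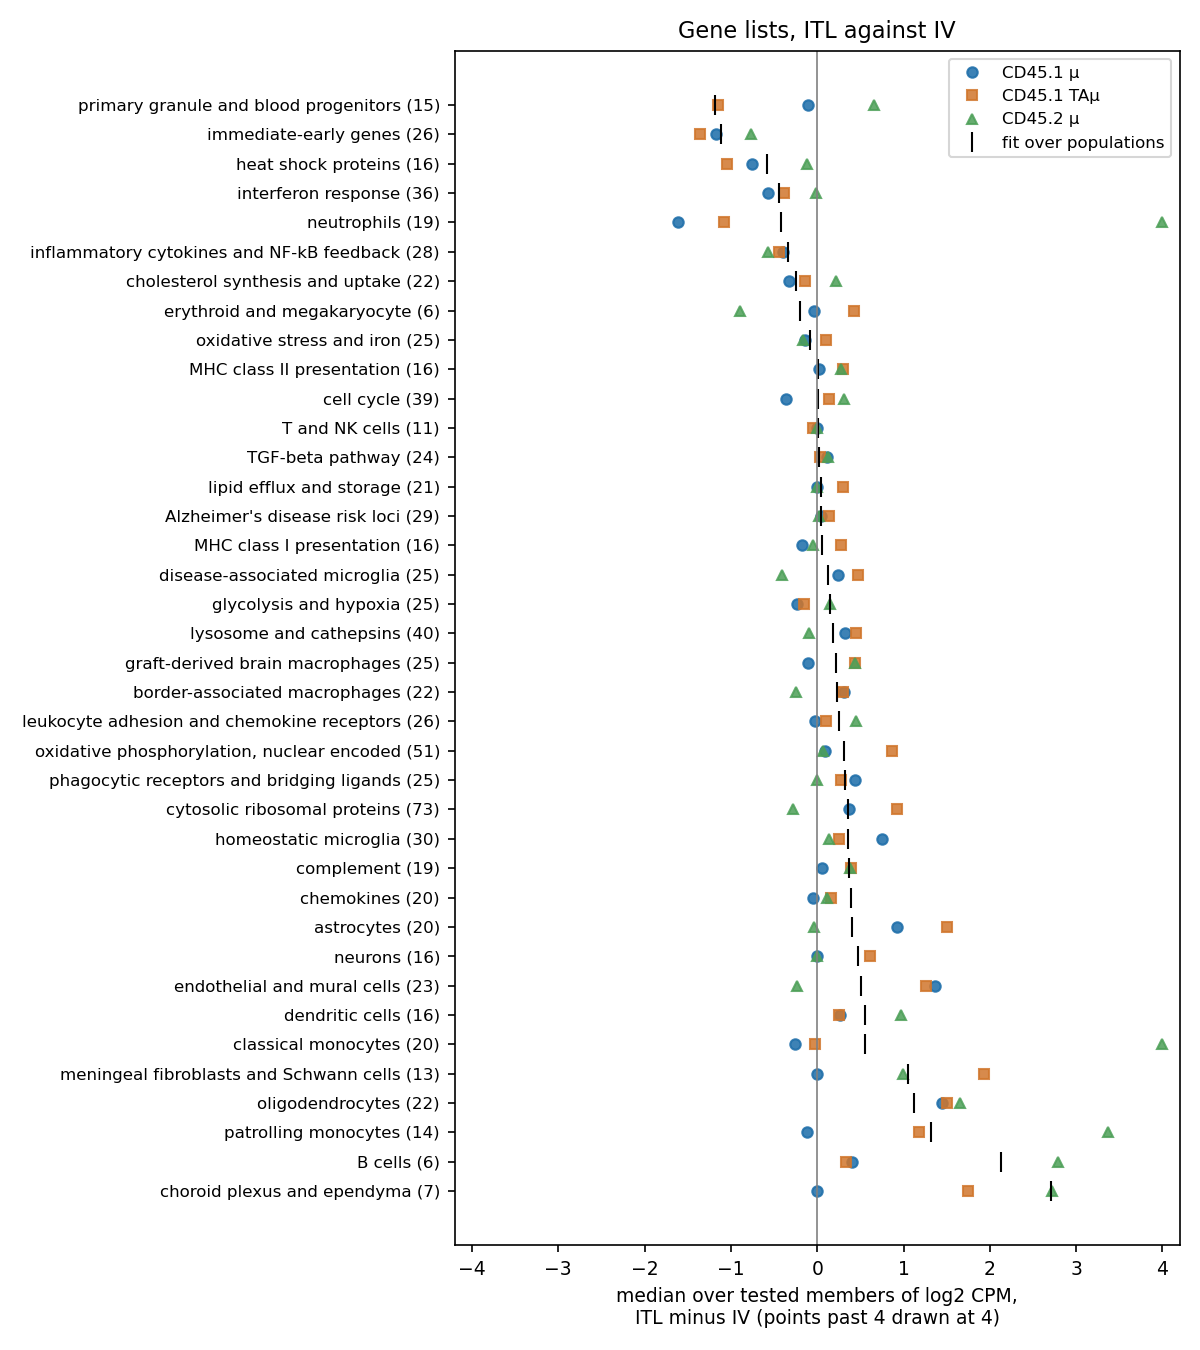
Median log2 difference between ITL and IV over the tested members of each list (horizontal axis, number of members in brackets), within each sorted population (points) and in the fit (bar). The immediate-early points lie at -1.18, -1.36 and -0.77, while lists of blood and brain cells spread widely between populations.

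Lists of other cell types were measured because a sort can carry them along, and in bulk RNA a smaller number of such cells and less RNA per cell cannot be told apart. Oligodendrocyte genes were fitted higher by ITL for 18 of 22 members, and 14 members were higher in all 3 populations. Over all genes tested these shares were 53% and 16.9%. The median log2 fold change of oligodendrocyte genes was 1.12, with 0 called. Their summed level was 1664, 1375 and 1986 CPM by ITL and 1220.2, 911 and 1868 CPM by IV. Ermn, a cytoskeletal protein gene of oligodendrocytes, had 11.7, 3.95 and 23.9 CPM by ITL against 0, 0.511 and 0.0728 CPM by IV. Every ITL library lay above every IV library for Ermn, which did not pass (edgeR adjusted p = 0.298). Astrocyte genes were fitted higher for 15 of 20 members (median 0.40, 0 called) and endothelial and mural genes for 15 of 23 (median 0.51, 0 called). The within-population medians were 0.93, 1.505 and -0.04 for astrocyte genes and 1.37, 1.26 and -0.24 for endothelial and mural genes, above 0 in both CD45.1 populations and below it in CD45.2 µ. Neurons (median 0.47), choroid plexus and ependyma (2.71, 7 members tested), meningeal cells (1.05), dendritic cells (0.56), blood progenitors (-1.19), B cells (2.13, 6 members tested), T and NK cells (0.01) and erythroid cells (-0.20) held 0 called genes. The part of these cells in the 28 genes that fell was not tested.

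Blood cell lists took opposite directions in different populations. Neutrophil genes summed to 4581, 2036 and 5176 CPM by ITL and to 15526, 4563 and 519 CPM by IV, and the neutrophil granule gene Ltf had 0 counts in IV CD45.2 µ against 485 CPM in ITL CD45.2 µ. Within CD45.2 µ the neutrophil sum was thus higher by ITL, and within both CD45.1 populations lower. The part of blood cells in the 28 genes that fell was not tested. Patrolling monocyte genes were fitted higher for 11 of 14 members, beside 53% of all genes tested. Their median log2 fold change was 1.32, with within-population medians of -0.11, 1.18 and 3.37. Their summed level, Klf2 included, was 1095, 1659 and 1761 CPM by ITL and 1721, 2107 and 1396 CPM by IV. This sum was lower by ITL in both CD45.1 populations and higher in CD45.2 µ. Adgre4, an adhesion receptor gene of these cells, had 15.5, 120.2 and 97.9 CPM by ITL against 4.59, 28.2 and 0 CPM by IV (2.95 ± 0.64, edgeR adjusted p = 0.0722). Ace, the angiotensin-converting enzyme, had 30.2, 145 and 87.9 CPM by ITL against 4.41, 49.2 and 1.02 CPM by IV (2.53 ± 0.63, edgeR adjusted p = 0.197). Each was higher by ITL within every population, and neither passed. Klf2 belongs to the same list and fell, with 238, 206 and 241 CPM by ITL against 817, 807 and 712 CPM by IV. The sum of the list holds these levels and was not computed without Klf2, so its direction in the CD45.1 populations may rest on that gene. Classical monocyte genes had within-population medians of -0.26 and -0.03 in the CD45.1 populations and 7.20 in CD45.2 µ, where IV CD45.2 µ summed to 126 CPM. The neutrophil and classical monocyte lists held 0 called genes. T and NK cell genes summed to at most 57.9 CPM and B cell genes to at most 92.6 CPM in the 6 libraries.

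None of the 5 sex-linked genes followed, Xist and the 4 Y-linked genes summed above, passed. The Y-linked helicase gene Ddx3y had 53.6, 134 and 1.86 CPM by ITL against 246, 273 and 30.0 CPM by IV (log2 fold change -1.97 ± 0.45, edgeR adjusted p = 0.108). Ddx3y was lower by ITL within every population. The Y-linked genes Eif2s3y and Kdm5d did not shift to the same extent. Eif2s3y had 23.7, 58.3 and 0.311 CPM by ITL against 31.5, 67.0 and 6.04 CPM by IV (-0.49 ± 0.52). Kdm5d had 33.3, 40.2 and 0 CPM by ITL against 29.1, 38.6 and 0 CPM by IV (0.13 ± 0.54). Xist was at 1.28 ± 0.50 (edgeR adjusted p = 0.795).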

How the data were processed

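RNA of sorted brain cells was measured by sequencing of polyadenylated RNA in 11 libraries, of which 9 (3 each by ITL, ICV and IV) entered the model. The authors deposited whole-number counts per gene, aligned with STAR to mm39 (GRCm39), per the submitters' processing notes; the sources used here do not state the annotation, the strand setting or the treatment of reads with several matches. Every count column was assigned to a sample by its label. Over 36 pairs of libraries the lowest chi-square per degree of freedom was 42.8, so none was a duplicate. Genes passed a minimum count of 10 and a minimum total of 15 (edgeR's filterByExpr), libraries were scaled by TMM, and edgeR 4.0.16 (R 4.3.3, limma 3.58.1) fitted route plus sorted population with 4 residual degrees of freedom and a biological coefficient of variation of 0.842. Calls had a Benjamini-Hochberg adjusted p under 0.05. The SE is the fold change divided by the square root of F, and levels within populations used a prior count of 2. The model was tested on simulated data. DESeq2 1.42.0, limma-voom, other filters, scalings, models and leaving out libraries were alternatives. Promoters came from RefSeq on GRCm38.p6, a build other than that of the counts, and overlapping genes from GENCODE M21. Named genes were, in each direction, at most 12 of those called, by fold change (mean of at least 3 log2 CPM), up to 12 each way by the smallest ratio over the populations (mean of at least 5 log2 CPM), up to 4 members of each list by p, and 8 genes followed throughout; the other called genes and the relatives of called genes were added after their values were seen. The comparison and the 39 lists were chosen with earlier results of these data known. The 15 gene families were written after the values had been seen. Of 1166 list and family entries, 1148 were in the tables. The floors for a count of 0 cover counting error only, while the SE and the SD also carry the spread between libraries. A few genes that these rules select are not reported here.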

Additional observations from a re-analysis of the deposited data

How the results depend on the processing

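No paired analysis was possible between animals because no label numbers them; the model pairs libraries by sorted population alone. The 29 genes called, 28 lower and 1 higher by ITL, became 12, 12 and 0 with a filter of 10 CPM in 3 libraries, 150, 79 and 71 with DESeq2, 107, 99 and 8 with limma-voom, 10, 10 and 0 with the legacy quasi-likelihood fit, 13, 13 and 0 without the population block, and 49, 44 and 5 without both ICV CD45.1 µ and IV CD45.2 µ. The higher genes were 4 without a filter, 3 in the 6 libraries alone and 4 with all 11 libraries. Without single libraries the calls ranged from 0 to 35, lower from 0 to 32 and higher from 0 to 3. DESeq2 split its calls into 79 lower and 71 higher; the cause was not tested. The stricter filter left 53 genes lower and 54 higher by 2-fold in all 3 populations, since it tests fewer genes; these counts were not computed with a library left out. The 28 genes kept their sign in every setting run, which their choice by the gap between ITL and IV largely fixed. Signs turned for uncalled genes. The log2 fold change of Nr4a1 was -0.21 with limma-voom, -0.41 without both ICV CD45.1 µ and IV CD45.2 µ, and -0.39 to 0.57 without single libraries. The log2 fold change of Nr4a3 was -0.32 with limma-voom, -0.0593 without the population block, -0.42 without those 2 libraries, and -0.37 to 0.74 without single ones. The log2 fold change of Egr3 was -0.0534 without the population block and -0.39 to 0.59 without single libraries. Without single libraries Egr2 ranged from -0.79 to 0.47, Trem2 from -0.13 to 0.74, Apoe from -0.24 to 0.61, Ms4a7 from -0.40 to 0.55 and Ltf from -2.27 to 0.45. List medians without single libraries ranged from -1.33 to -0.87 for immediate-early genes, -0.89 to -0.27 for heat shock, -0.57 to -0.18 for interferon response, -0.52 to -0.27 for inflammatory genes, 0.19 to 0.69 for homeostatic microglia, 0.41 to 2.82 for oligodendrocytes and 0.16 to 0.64 for ribosomal proteins.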
